A study of Rattus norvegicus with 2 samples.

Results

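Annexins were followed here on 1-colour arrays of heart RNA from male Dahl salt-sensitive rats at 17 weeks of age. The strain is inbred and becomes hypertensive when fed salt. One array held the high-salt diet, for which chronic heart failure is stated, and 1 array held the low-salt diet, for which no disease is stated. Nothing in the sources used here says whether an RNA came from 1 animal or a pool, which part of the heart was taken, or how long the diets ran. The members were all probe sets, the groups of short probes that report 1 transcript, that the platform annotation names with 1 of 7 symbols, Anxa1 to Anxa7. All 7 genes were present, with 11 probe sets, out of 4736 genes and 7006 probe sets that carry a single symbol. No annexin symbol stood in a probe set shared by several genes. Anxa8, Anxa9, Anxa10, Anxa11 and Anxa13 were also looked for and had no probe set with their symbol.

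Annexins are soluble proteins that attach to the inner or outer face of membranes when calcium rises, by binding acidic phospholipids such as phosphatidylserine. They share a conserved core of repeats that carries the calcium sites, and each has its own amino-terminal tail that sets its partners, among them small S100 proteins. In the heart they are found in myocytes, fibroblasts and endothelial cells, and are known for roles in membrane repair, calcium handling, clotting at cell surfaces and the ending of inflammation.

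The upstream sequences of 3 annexins that reached the noise level described below on an array are given first, to show the start regions of the genes whose values follow. RefSeq windows on the GRCr8 build were matched for 6 of the 7 genes; the Anxa6 window was not matched. Of each, the 250 bases before the annotated start were searched on both strands for 4 motifs: TATAAA, the core of a TATA box, GGGCGG, a GC box bound by Sp1 family factors, the CCAAT box, and TGAGTCA, a site of AP-1 factors. Matches are in capitals below, each sequence running 5′ to 3′ along the gene. The window of Anxa5 is chr2:121272697-121272946 (minus strand), that of Anxa2 chr8:78986002-78986251 (plus strand) and that of Anxa1 chr1:227303733-227303982 (minus strand).
Anxa5: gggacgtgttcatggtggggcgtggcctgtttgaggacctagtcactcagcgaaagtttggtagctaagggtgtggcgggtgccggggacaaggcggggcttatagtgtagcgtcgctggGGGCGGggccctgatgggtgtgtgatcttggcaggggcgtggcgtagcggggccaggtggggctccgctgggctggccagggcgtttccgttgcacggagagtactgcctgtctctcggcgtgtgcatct
Anxa2: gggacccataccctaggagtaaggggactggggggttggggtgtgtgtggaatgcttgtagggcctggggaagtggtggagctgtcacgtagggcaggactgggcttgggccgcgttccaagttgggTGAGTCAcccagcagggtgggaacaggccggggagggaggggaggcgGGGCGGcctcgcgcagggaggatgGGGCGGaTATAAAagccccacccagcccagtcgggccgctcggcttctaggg
Anxa1: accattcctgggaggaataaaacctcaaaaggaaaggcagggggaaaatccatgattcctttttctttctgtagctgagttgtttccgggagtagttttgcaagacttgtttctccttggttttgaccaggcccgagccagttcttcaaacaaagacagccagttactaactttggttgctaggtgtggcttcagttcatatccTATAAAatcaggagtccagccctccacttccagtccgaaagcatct
The Anxa5 window had 65.2% G and C, 1 GC box and none of the other motifs. The Anxa2 window had 67.2% G and C, 2 GC boxes, 1 TATAAA that began 45 bases before the start, and 1 TGAGTCA. The Anxa1 window had 45.2% G and C and 1 TATAAA, which began 46 bases before the start, and none of the other motifs. Over all 33469 windows of the same length the median was 51.2% G and C. GGGCGG stood in 30.5% of those windows, TATAAA in 12.9%, CCAAT in 34.0% and TGAGTCA in 4.05%. A longer annotated gene model begins 239 bases further upstream for Anxa5 and 3007 bases further upstream for Anxa1, so these windows show 1 start each. Of the windows not printed, those of Anxa3 and Anxa4 were near Anxa5 in G and C, at 64.0% and 62.4%. They held 3 and 1 GC boxes, and that of Anxa4 also held 1 CCAAT box. The Anxa7 window had 50.8% G and C, 1 CCAAT box and no GC box. Longer gene models begin 81, 21 and 1860 bases further upstream for Anxa3, Anxa4 and Anxa7, so these windows too show 1 start each. These matches describe letters alone.

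The annexins split into Anxa5, which was about 3-fold higher in the high-salt heart, Anxa2, which was 1.53-fold higher, and 5 genes with no readable difference or no readable signal. Intensities are the authors' deposited values on a linear scale, on which many probe sets read below 0. A noise floor of 126.4, the 95th percentile of the size of the values below 0, was used in place of a detection call, which the table lacks. Of the 11 annexin probe sets, 5 reached this floor on an array, 4 of them on both, and 6 stayed under it on both. A probe set under the floor on both arrays has no ratio, and with 1 value under it the ratio is a lower bound. The 5 with a ratio belonged to Anxa1, Anxa2, Anxa5 and Anxa6. Against the floor, 2 of the 5, both of Anxa5, were 2-fold or more higher, 3 lay within 2-fold and none was 2-fold or more lower. Over all 1955 probe sets that reached the floor on an array, 3.53% were 2-fold or more higher and 1.69% were 2-fold or more lower. The median log2 ratio (high salt over low salt) was 0.61 for the 5 annexin probe sets and -0.04 for all 1955. Anxa5 entered the annexin median with 2 probe sets, and with 1 probe set a gene that median was 0.40. All 5 annexin ratios were above 1, as were 45.6% of all measured ratios; that of Anxa1 had to be, since its probe set passed the floor through the high-salt value alone.

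**Figure D1:**
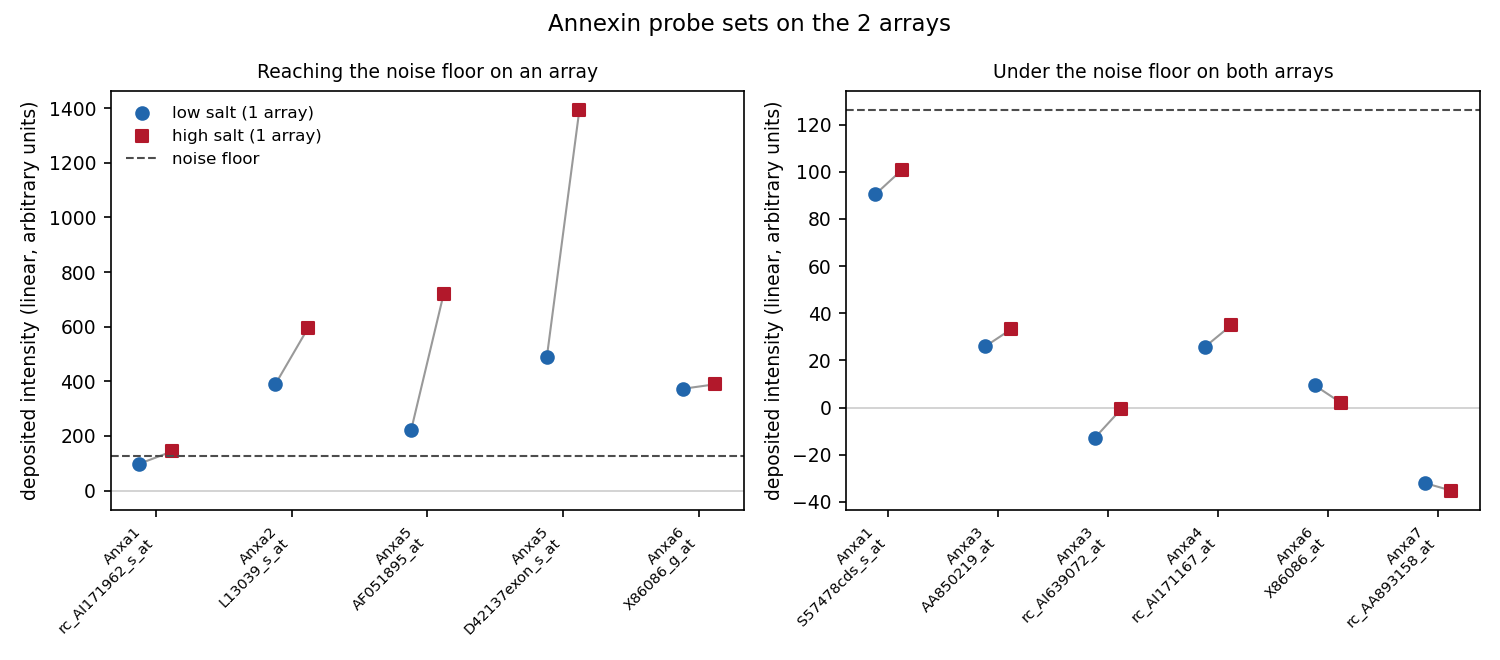
Deposited intensity (linear, arbitrary units) of the 11 annexin probe sets on the low-salt array (circles) and the high-salt array (squares), with the noise floor dashed; each point is 1 array. The 2 Anxa5 probe sets show the widest gaps, 219.8 to 719.5 and 488.4 to 1395.2, and the 6 probe sets in the right panel stay between -35.2 and 100.7.

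Each diet was read on 1 array, so replicate spread could not be measured, no p-value was computed, and each difference below compares these 2 arrays. The repeat measurement that the table does hold is the agreement of several probe sets of 1 gene. Among 231 genes with at least 2 probe sets at or above the noise floor on both arrays, the log2 ratio varied between probe sets of a gene with a pooled SD of 0.22. This error holds no variation between animals. Fewer cells of a type and less RNA per cell cannot be told apart in such whole-tissue RNA.

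Anxa5 encodes annexin A5, which binds phosphatidylserine on the outside of cells, shields it from clotting factors and assembles into lattices at membrane wounds; it is the protein used in the laboratory to stain dying cells. The probe set AF051895_at read 719.5 with high salt and 219.8 with low salt. The probe set D42137exon_s_at, built on the gene's genomic record, read 1395.2 with high salt and 488.4 with low salt. Both were well above the noise floor on both arrays and both were higher with high salt. The ratios were 3.27-fold and 2.86-fold, or 1.71 and 1.51 on the log2 scale. They differed from each other by 0.20, within the pooled SD of 0.22, and each was more than 6 times that SD (7.69 and 6.80 times). Ordered by ratio, they stood 19th and 24th from the top of the 1955 measured probe sets. Among probe sets at or above the floor on both arrays, 3.07% of 1561 were at least 2-fold higher. Of the 231 genes with repeat probe sets, 4, or 1.73%, had all of them at least 2-fold higher, and Anxa5 was 1 of the 4.

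**Figure D2:**
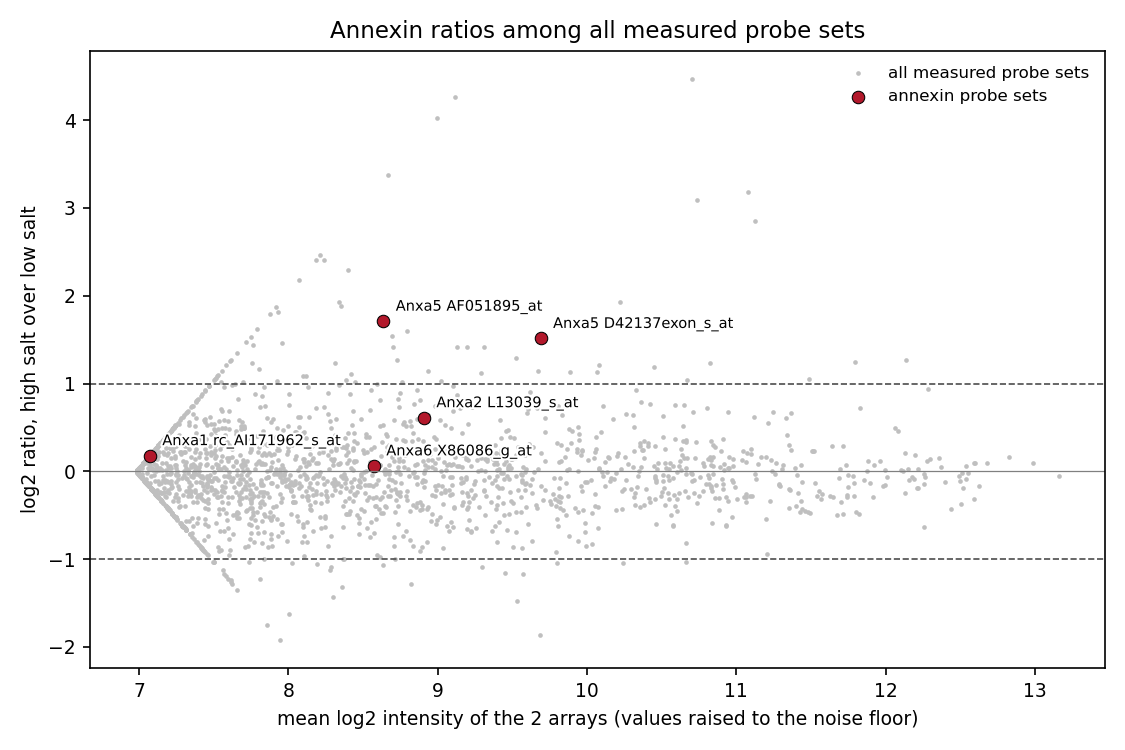
Log2 ratio (high salt over low salt) against the mean log2 intensity of the 2 arrays, for all 1955 measured probe sets (grey) and the 5 measured annexin probe sets (red); dashed lines mark 2-fold, and points on the slanted edges are bounds. The Anxa5 probe sets lie at 1.71 and 1.51, above the 2-fold line, and Anxa2, Anxa1 and Anxa6 lie between 0.06 and 0.61.

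The genes with the ratio nearest to that of AF051895_at, among genes outside the family read above the floor on both arrays, were Lyz2, Prnp, Fstl1, Pmepa1 and Tsc22d1. With 2 arrays such likeness is closeness of 1 ratio and no more. Lyz2, the lysozyme of macrophages and neutrophils, read 458.6 against 130.4, a 3.52-fold difference. Prnp, the prion protein, read 772.2 against 255.0, and Pmepa1, an inhibitor of TGF-beta signalling, read 707.0 against 243.2. Fstl1, a secreted follistatin-like glycoprotein, read 627.6 against 170.6. Its other probe set passed the floor through the high-salt value alone, so it could only come out higher. That reading was a bound of 1.10 on the log2 scale. Tsc22d1, a leucine zipper protein, read 2336.8 against 612.2. These 5 had between 2.91-fold and 3.82-fold more signal in the high-salt heart.

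Anxa2 encodes annexin A2, which pairs with S100A10 at the cell surface and binds plasminogen and its tissue activator. Its single probe set, L13039_s_at, read 593.6 with high salt and 388.5 with low salt. Both values were above the noise floor, and the ratio was 1.53-fold, 0.61 on the log2 scale. That is 2.75 times the pooled SD between probe sets of a gene and below the 2-fold rule. It stood 159th of the 1955 measured ratios. With 1.5-fold as the rule, Anxa2 joined the Anxa5 probe sets, and 3 of 5 annexin probe sets were higher against 8.75% of all measured. With 3-fold as the rule AF051895_at alone passed, 1 of 5, against 1.07% of all measured. The name ending _s_at of this probe set, of D42137exon_s_at and of both Anxa1 probe sets marks probes that can match more than 1 transcript. The ending _g_at, of the Anxa6 probe set with a ratio, was also counted as a mark of shared sequence. So was _f_at, the ending of the Hbb, Myh6 and Acta2 probe sets given below.

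Anxa1 encodes annexin A1, a protein induced by glucocorticoids that limits phospholipase A2 activity and signals through formyl peptide receptors to restrain leukocytes. The probe set rc_AI171962_s_at read 143.2 with high salt and 98.1 with low salt. The probe set S57478cds_s_at read 100.7 and 90.4. Only the high-salt value of the first exceeded the noise floor, and by little. Its ratio was therefore a bound, at least 1.13-fold higher, or 0.18 on the log2 scale, which is less than the pooled SD. Without any floor the 2 probe sets gave 1.46-fold and 1.11-fold. A difference in Anxa1 was not detectable at this signal.

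Anxa6 encodes annexin A6, the largest member, with a doubled core, which is abundant in heart muscle and tied to calcium exchange at the myocyte membrane. The probe set X86086_g_at read 389.0 with high salt and 372.4 with low salt, both above the noise floor. The ratio was 1.04-fold, 0.06 on the log2 scale, or 0.28 times the pooled SD. The other probe set from the same record, X86086_at, read 2.0 and 9.4 and gave no ratio. Between these 2 arrays Anxa6 thus differed by less than the error between probe sets, although its reading rests on 1 probe set.

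No probe set of Anxa3, Anxa4 or Anxa7 reached the noise floor on either array. Anxa3, known from neutrophils, read 33.3 (high salt) and 25.9 (low salt) with AA850219_at, and -0.6 and -12.8 with rc_AI639072_at. Anxa4, known best from epithelia, read 34.9 and 25.7 with rc_AI171167_at. Anxa7, also called synexin, a membrane-fusing annexin that binds sorcin, read -35.2 and -32.0 with rc_AA893158_at. Over the 6 dim annexin probe sets the gap between the arrays never exceeded 12.2 units against a floor of 126.4, so these readings set no order between the diets. They do not show that the transcripts are absent.

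The proteins that annexins work with gave few readable probe sets. Those past 2-fold, S100a4, Mfge8 and Plscr3, were higher with high salt, though S100a4 and Plscr3 could only come out higher. Genes within 2-fold read both ways. In these lists 1 probe set stood for each gene, the one with the highest mean intensity. Over all 1211 genes measured in this way, 3.55% were 2-fold or more higher and 1.90% were 2-fold or more lower. Of 4 S100 partners present, 2 reached the floor. S100a4, a calcium sensor of motile and mesenchymal cells that binds annexin A2, read 461.8 against 99.8, at least 3.65-fold higher, and was measured through the high-salt value alone, as was Plat below. S100a1, the S100 protein of heart muscle, read 154.6 against 254.4, 1.65-fold lower. S100a10, the classical partner of annexin A2, lay just under the floor at 122.9 against 112.4, and S100b was below 0 on both arrays. In the list of plasmin formation, where annexin A2 acts as a receptor, 1 of 5 genes present was measured: Plat, the tissue activator, read 141.8 against 100.7, at least 1.12-fold higher. Plau, Plaur, Plg and Serpinb2 stayed under the floor on both arrays.

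Among genes of the exposure and binding of phosphatidylserine, the lipid that annexin A5 recognises, 3 were measured and went both ways. Mfge8, a secreted bridge between phosphatidylserine and phagocytes, read 725.9 with high salt and 328.6 with low salt, which is 2.21-fold higher. Plscr3, a phospholipid scramblase family member of mitochondria, read 350.2 against 32.4, at least 2.77-fold higher; it passed the floor through the high-salt value alone, so it could not have counted as lower. Gas6, which links phosphatidylserine to receptor kinases of the TAM family, read 243.8 against 377.5, 1.55-fold lower. Its dimmer probe set, above the floor on both arrays, read 179.3 against 202.9, 1.13-fold lower. The list is short and was chosen with earlier results of these arrays known.

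Among genes of membrane repair and caveolae, none of 4 measured passed 2-fold in either direction, with a median log2 ratio of -0.12. Cav1, the caveolin of endothelium and fibroblasts, read 135.5 against 254.4, 1.88-fold lower. Cav3, the muscle caveolin, read 403.6 against 438.9. Its dimmer probe sets, above the floor on both arrays, went the other way, at 332.0 against 312.9 and 216.2 against 171.7. The calpain genes Capn1 and Capns1 read 238.3 against 259.8 and 1147.3 against 987.7, and Capn2 lay under the floor. Of the calcium handling and signalling partners of annexins A5, A6 and A7, 3 of 8 present were measured and none passed 2-fold, with a median of -0.19. The calcium pump Atp2a2 read 4426.7 against 5065.0, its inhibitor Pln 1624.3 against 1899.7 and the sodium-calcium exchanger Slc8a1 192.9 against 186.5. Sorcin (Sri) and protein kinase C alpha (Prkca) were under the floor on both arrays.

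For the annexin A1 axis, all 6 genes present, the phospholipases Pla2g1b, Pla2g2a, Pla2g4a, Pla2g5 and Pla2g6 and the glucocorticoid receptor Nr3c1, stayed under the floor, and no formyl peptide receptor had a probe set under the symbols searched. Pla2g4a came closest at 123.8 against 109.3. Of 6 measured genes induced by glucocorticoid, as Anxa1 is, 1 was 2-fold or more higher, 1 was 2-fold or more lower and 4 lay within 2-fold. Hsd11b1, an enzyme that turns inert glucocorticoid back into its active form, read 413.9 against 149.9, 2.76-fold higher. Pdk4, a kinase that inhibits pyruvate dehydrogenase, was at least 2.43-fold lower at 85.6 against 307.3. Dusp1, a MAP kinase phosphatase, read 137.0 against 254.9, Klf9 322.9 against 543.1, Zfp36 242.0 against 402.0 and Cebpd 226.4 against 248.1. Hsd11b1 was thus the only one of the 6 with a ratio above 1, and the median was -0.74.

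**Figure D3:**
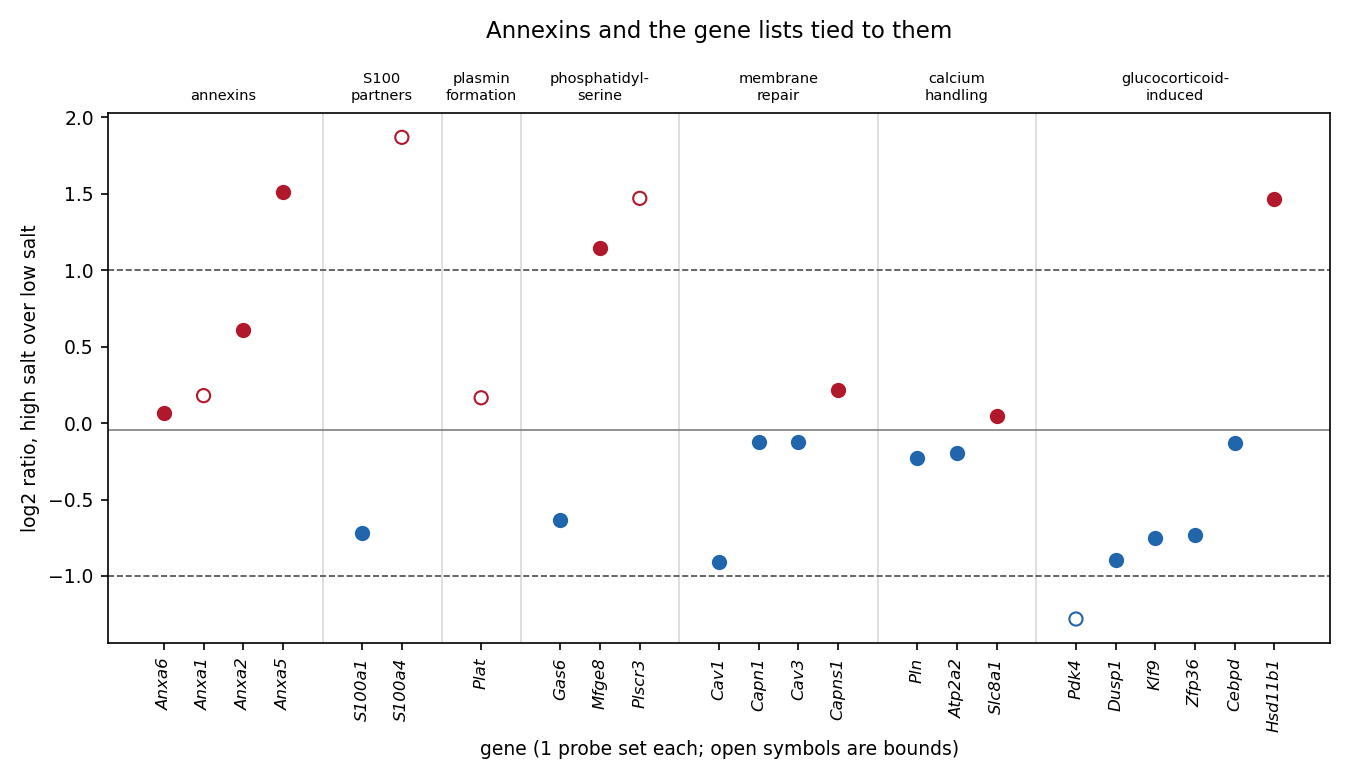
Log2 ratio (high salt over low salt) for each measured annexin and each measured gene of the related lists, 1 probe set a gene; filled symbols had both values above the noise floor, open symbols are bounds, dashed lines mark 2-fold and the solid line is the median of all measured probe sets (-0.04). Anxa5, S100a4, Mfge8, Plscr3 and Hsd11b1 lie above the upper line and Pdk4 below the lower one.

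Markers of the cell types in the heart were read beside the annexins, since several of these cells hold annexins. Cardiac myocyte markers were bright on both arrays: 6 of 7 present were measured, none passed 2-fold in its brightest probe set, and their summed intensity came to 37589.9 with high salt and 37900.2 with low salt. Actc1, Myl2 and Tnnt2 read 8364.9 against 7848.9, 7677.8 against 6884.4 and 5576.1 against 6017.5. The dimmer probe sets of Myh6 and Tnni3 read lower with high salt: Myh6 read 1706.2 against 3276.7 and 1673.2 against 2398.5 in its other 2, and Tnni3 2844.5 against 3976.3 in its other 1. Those of Myl2 read 6397.3 against 5990.0 and 5174.2 against 4772.8. Both arrays thus carried the defining transcripts of heart muscle, with Ryr2 under the floor. Of 10 fibroblast markers, 7 were measured and none passed 2-fold, with a median of -0.08 and summed intensities of 4558.0 and 3895.4. Their members did not share a direction: Vim read 975.5 against 564.8 and Col1a1 1169.7 against 823.3, whereas Dcn read 1364.9 against 1443.6. Ddr2, Tcf21 and Thy1 were under the floor.

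Of 5 macrophage markers present, 3 were measured, C1qb among them through its high-salt value alone, with summed intensities over the 5 of 848.3 with high salt and 431.9 with low salt. Lyz2 was the only one past 2-fold, while C1qb read 178.1 against 97.1 and Cd14 149.1 against 128.7; Csf1r and C1qc were under the floor. The 3 red blood cell markers present had summed intensities of 7944.9 and 3134.8. Hbb, the one that reached the floor on both arrays, read 6982.3 against 2910.5, 2.40-fold higher. Alas2 and Slc4a1 passed the floor through the high-salt value alone and so could only come out higher: Alas2 read 698.0 against 104.5 and Slc4a1 264.6 against 119.8, although another Slc4a1 probe set read 168.3 against 174.8. The part of fibroblast, macrophage and red cell RNA in the Anxa5 and Anxa2 differences was not tested. The 3 neutrophil, 5 mast cell and 8 lymphocyte markers present were under the floor on both arrays, so they set no order between the diets. Of the neutrophil markers, S100a8 and S100a9 read 48.4 and 62.6 with high salt and both -6.1 with low salt. Cxcr2 read -3.1 with high salt and 3.5 with low salt. Of 5 endothelial markers, Flt1 alone reached the floor (121.3 against 127.9), and of 5 smooth muscle markers Acta2 alone (378.5 against 314.6). Of 3 adipocyte markers Lep alone did, at 531.1 against 453.6 in a probe set that can match several transcripts, while Plin1 and Cfd stayed under the floor. The remaining Lep probe sets were also under it, at -319.7 against -467.6 and 20.3 against -76.7.

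**Figure D4:**
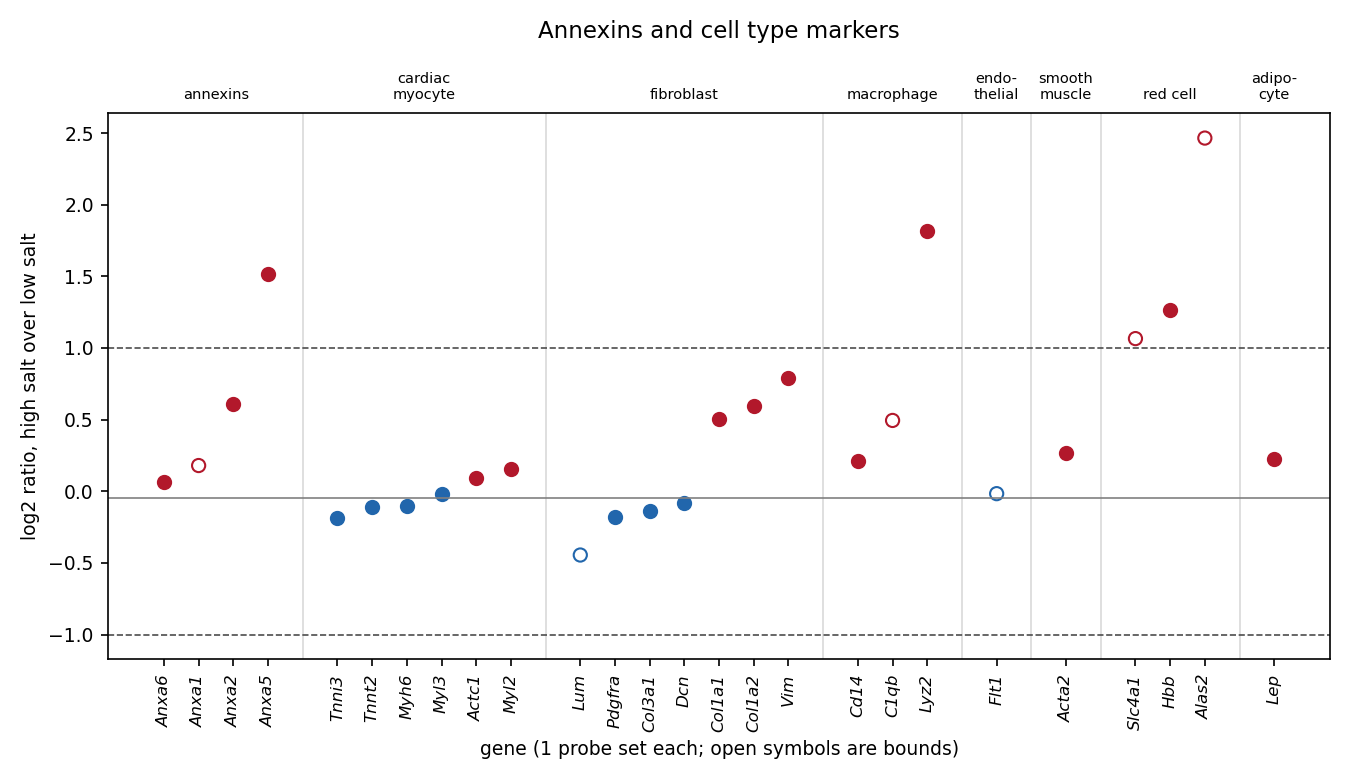
Log2 ratio (high salt over low salt) for each measured annexin and each measured cell type marker, 1 probe set a gene, with open symbols for bounds, dashed lines at 2-fold and the solid line at the median of all measured probe sets (-0.04). Myocyte markers lie between -0.19 and 0.16, fibroblast markers between -0.44 and 0.79, and Anxa5 (1.51) lies near Lyz2 (1.81) and the red cell markers (1.07 to 2.46).

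The annexin ratios varied little with the scaling of the arrays. Over the scalings and floors tried, AF051895_at ran from 2.65-fold to 3.38-fold, D42137exon_s_at from 2.76-fold to 2.95-fold, Anxa2 from 1.53-fold to 1.58-fold and Anxa6 from 1.03-fold to 1.08-fold. The Anxa1 ratio of rc_AI171962_s_at moved most, from 1.13-fold to 1.46-fold, the latter with a floor low enough to admit its low-salt value. At that lower floor of 10.9, Anxa3 and Anxa4 gave 1.29-fold and 1.36-fold from readings of 25.7 to 34.9, deep within the noise.

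**Figure D5:**
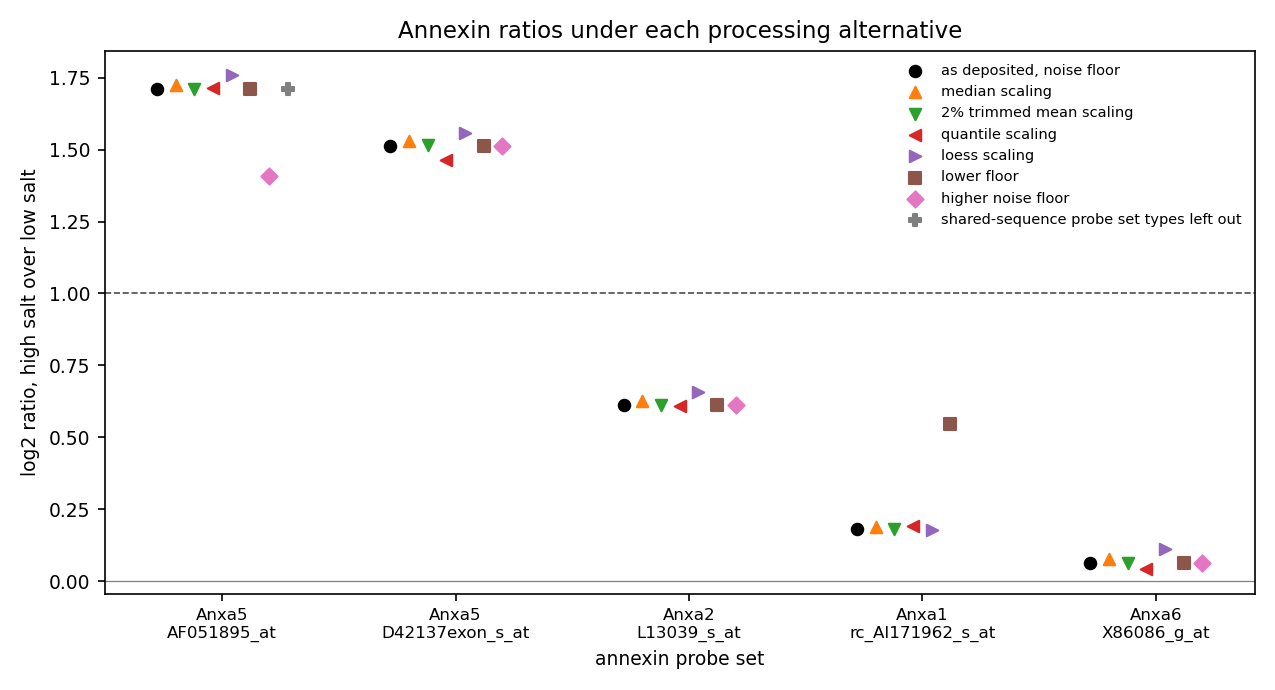
Log2 ratio of the 5 measured annexin probe sets under each scaling and floor, with the 2-fold line dashed; black circles are the values as deposited with the noise floor. Both Anxa5 probe sets stay between 1.41 and 1.76, above the line, and Anxa2, Anxa1 and Anxa6 stay below it under every setting drawn.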

How the data were processed

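The table holds 8799 probe sets on 2 arrays, 59 of them controls that were left out. The authors deposited linear intensities, 1 for each probe set on each array; the software behind them is not given in the sources used here. Per the labels' protocols, total RNA was turned into biotin-labelled cRNA. Values below 0 made up 27.3% of each array. The 2% trimmed means differed by 0.0741%, so the deposited values were used unscaled. Genes were named from the platform annotation of 2016, whose gene identifiers gave the same symbol in RefSeq for all 7 members.

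Ratios were taken after raising both values to the noise floor of 126.4, which 20.0% of the high-salt and 20.3% of the low-salt probe sets reached. A gene was called at 2-fold. The number of arrays, 1 per diet, limits the precision, and no test was run. Named genes were all members and, in each list, those past 2-fold and the brightest others, up to 4 (3 for markers); other genes named from the lists were picked after their values were seen. Members and lists were chosen with earlier results of these data known. The list of genes nearest to Anxa5 used 1 probe set a gene. Motifs were picked after the sequences were seen. Alternatives were other scalings, floors, folds and probe set rules. The steps were tested on simulated arrays, with changes planted only in probe sets brighter on the low-salt array than any annexin probe set. That test therefore does not cover ratios or bounds at the annexin intensities. Python 3.11.15, numpy 2.4.6, pandas 2.3.3, statsmodels 0.14.6 and matplotlib 3.10.9 were used.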

Additional observations from a re-analysis of the deposited data

How the results depend on the processing

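The count of annexin probe sets at least 2-fold higher was 2, and 0 were at least 2-fold lower under all 11 alternatives. With 3-fold as the rule 1 remained above it, AF051895_at; with 1.5-fold 3 did, Anxa2 included. Counted per gene the higher count was 1, both with the brightest probe set and with the median probe set of each gene. The annexin median log2 ratio was 0.40 in both cases. Without probe sets whose names mark shared sequence 1 was left (AF051895_at), which then gave the median log2 ratio of 1.71. With a higher noise floor of 271.2 the median was 1.01, since fewer probe sets had a ratio, and AF051895_at became a bound of 1.41. At the lower floor of 10.9 the median was 0.49. Of 30 recomputed annexin ratios, 28 moved by less than the pooled SD of 0.22; that SD was 0.47 at the lower floor. Of 130 recomputed list counts 122 were unchanged or stayed within 1.5 times, many of them being 0 in both settings. Of 52 list medians 48 moved by less than the SD. The lists were recomputed only with median, quantile and loess scaling, at the lower floor and at 1.5-fold. They were not recomputed at 3-fold, at the higher noise floor, with trimmed mean scaling or under the other probe set rules. At 1.5-fold the glucocorticoid-induced genes had 4 lower in place of 1, and at the lower floor the fibroblast median was 0.51 in place of -0.08. No paired analysis was possible because each diet had 1 array. The signal over background limits what can be said of Anxa1, Anxa3, Anxa4 and Anxa7, and of the dim probe set of Anxa6.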

Other observations

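Besides Anxa5, 3 genes with at least 2 probe sets above the noise floor on both arrays showed 2-fold or more with high salt in each of them. Nppa, the gene of atrial natriuretic peptide, ranged from 7.20-fold to 22.2-fold over 4 probe sets. Rpl3, a protein of the large ribosomal subunit, gave 2.66-fold and 3.80-fold. Sorbs2, an adaptor of the actin cytoskeleton at Z-discs and cell junctions, gave 2.40-fold and 2.66-fold. These genes were singled out after their values were seen.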
